A study of Mus musculus with 2 samples.

Results

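The genes described here are 32 enzymes and transporters of glycolysis and the pentose phosphate pathway, of 46095 genes in the deposited count table. They were taken by symbol, and all 32 were found and passed the filter on low levels, a mean of 1 CPM or more. RNA sequencing compared macrophages grown from the marrow of C57BL/6 mice for 5 days with 100 ng/ml M-CSF, the growth factor that turns marrow progenitors into macrophages. The KO library came from mice with floxed Tipe1 alleles and LyzM-Cre, a Cre recombinase expressed in myeloid cells from Lyz2, and its genotype label is TIPE1-/-. The WT library is labelled wild type, and the design text describes its mice as Tipe1f/f without naming Cre. There was 1 library per genotype, so no difference below has a replicate check. Whether a library pooled several animals is not given in the sources used here. TIPE1, the product of Tnfaip8l1, is 1 of the TNFAIP8 proteins, which bind lipids. The libraries are called WT and KO below.

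Glycolysis splits glucose into pyruvate in the cytosol, yielding ATP and NADH, and lactate dehydrogenase can turn the pyruvate into lactate to regain NAD+. The pentose phosphate pathway branches off at glucose 6-phosphate. Its oxidative arm makes NADPH, used for biosynthesis, antioxidant defence and the macrophage oxidative burst, and its non-oxidative arm makes ribose phosphate and returns carbon to glycolysis. Inflammatory stimuli are known to raise glycolysis in macrophages, partly through the transcription factor HIF-1 alpha.

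Levels are given as CPM, reads per 1000000 after scaling the libraries with TMM, a trimmed mean of gene ratios. Values in parentheses after a ratio are 95% counting intervals, which cover counting error only. A gene was counted as higher or lower in KO when its CPM differed by at least 1.5-fold and the interval excluded 1.

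Of the 32 genes 29 differed by less than 1.5-fold between the libraries, and 3 passed that limit. The glucose transporter gene Slc2a6 and the phosphofructokinase gene Pfkp were higher in KO, and the lactate dehydrogenase gene Ldhb was lower. Of all 12495 genes tested, 6.47% were higher and 7.23% lower by the same rule, so the members' shares, 6.25% and 3.13%, are no larger than those of all genes tested at a mean of 1 CPM or more. The members' median log2 ratio of KO over WT, with 0.5 CPM added, was 0.0043, beside 0.011 over all tested genes. Of the members 20 lay within 1.2-fold (62.5%), against 60.8% of all tested genes. Together the 32 genes took 7019 CPM in WT and 7166 CPM in KO, a ratio of 1.02 (1.01 to 1.03). With total counts as the scaling that ratio was 0.97 (0.96 to 0.98), so its direction turns with the scaling.

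At a limit of 1.2-fold, 6 members were higher (18.8%) and 5 lower (15.6%), beside 14.3% and 13.1% of all tested genes. The higher ones were Slc2a6, Pfkp, Hk3, Gapdh, Eno2 and Tkt. The lower ones were Ldhb, Aldoc, Slc2a3, Slc16a1 and Pfkl. At a limit of 2-fold Slc2a6 alone was higher and 0 members were lower, beside 2.59% and 4.78% of all tested genes. Of the 31 members with a mean of 10 CPM or more, 2 were higher (6.45%) and 1 lower (3.23%) at 1.5-fold, beside 4.92% and 2.66% of genes at such levels, which are smaller shares. Just inside the 1.5-fold limit lay Pfkp at 1.53 and Ldhb at 1.52-fold lower. Just outside it lay Hk3 at 1.42 and Aldoc at 1.48-fold lower.

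**Figure D1:**
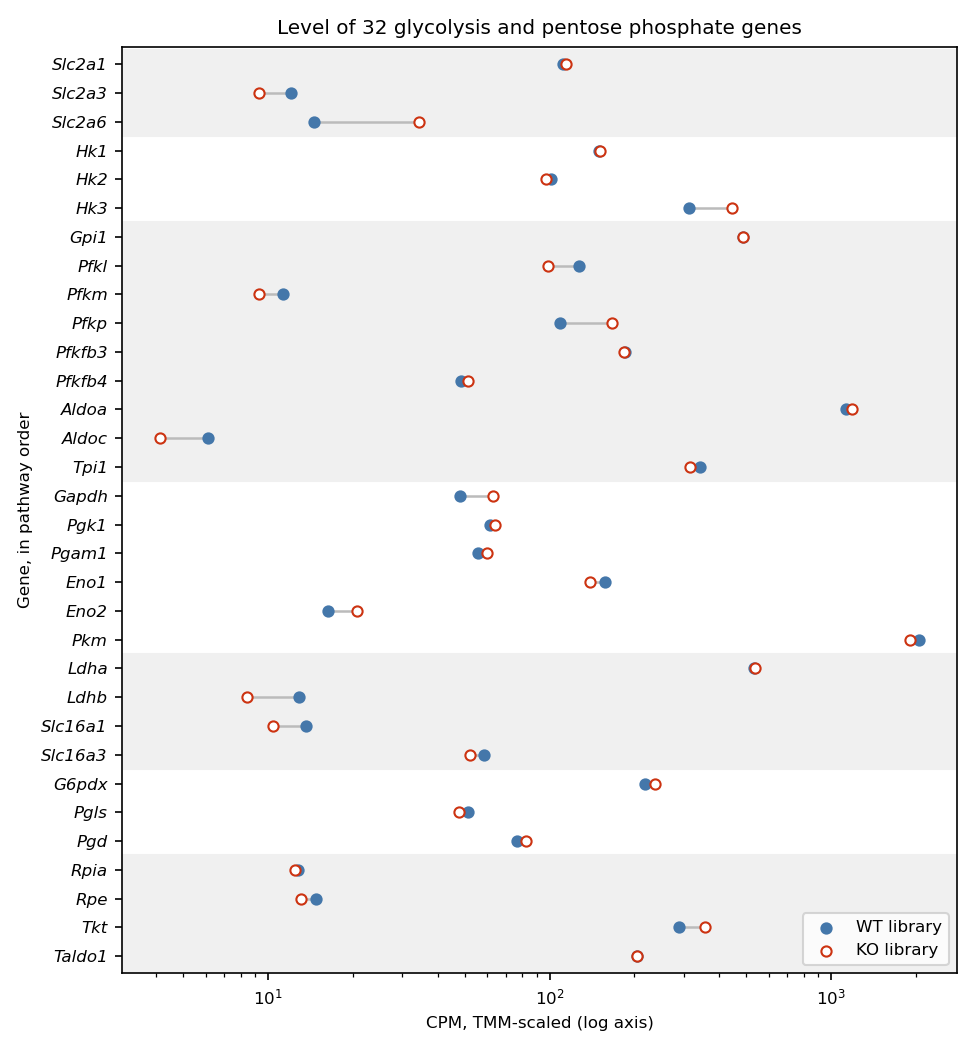
Level of each gene as TMM-scaled CPM on a log axis, with filled points for the WT library and open points for the KO library, 1 library each, and grey bands for alternate steps of the pathway. Most pairs of points lie close together, and the longest gap is that of Slc2a6, at 14.6 against 34.5 CPM.

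**Figure D2:**
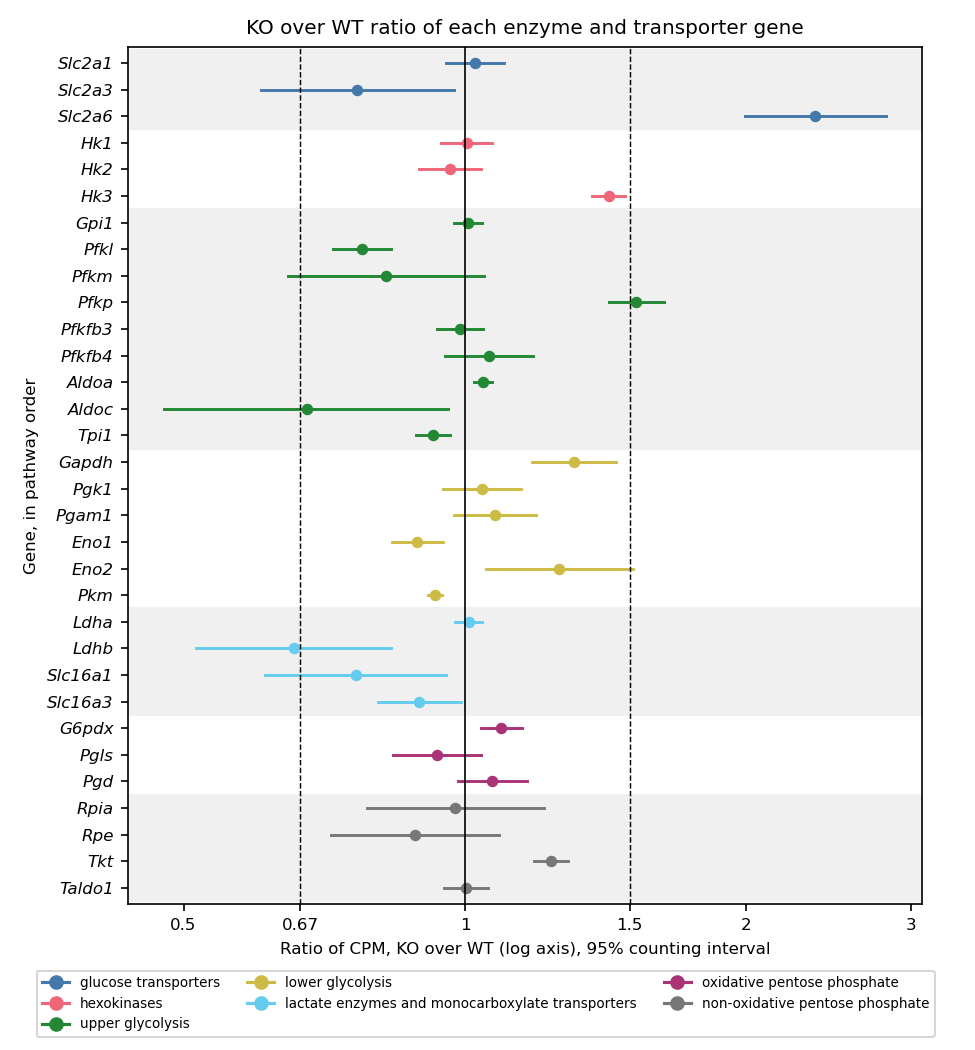
Ratio of KO over WT CPM for each gene on a log axis, with 95% counting intervals as horizontal lines, colours for the pathway step and dashed lines at 1.5-fold in either direction. Slc2a6 at 2.37 and Pfkp at 1.53 lie beyond the upper line and Ldhb at 0.66 beyond the lower one.

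Glucose enters macrophages through facilitative transporters of the SLC2A family. Slc2a1, which encodes GLUT1, stood at 112 CPM in WT and 115 CPM in KO, a ratio of 1.03 (0.96 to 1.10). Slc2a3, which encodes GLUT3, a high-affinity transporter, stood at 12.1 and 9.27 CPM, 1.30-fold lower (1.03 to 1.65). Slc2a6, which encodes GLUT6, a transporter of lysosomal membranes (GRCm38 chromosome 2, 27021363 to 27028000), had 176 reads in WT and 532 in KO. That is 14.6 against 34.5 CPM, 2.37-fold higher (1.99 to 2.82), and the log2 ratio of 1.21 exceeded that of 98.8% of all tested genes. The ratio of Slc2a6 kept above 2.2 in each of the 5 recalculations tried. GLUT6 is known to be induced in macrophages by inflammatory stimuli.

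Hexokinases phosphorylate glucose and so trap it in the cell. Hk1, the broadly expressed form bound to mitochondria, stood at 150 CPM in WT and 151 in KO. Hk2, the inducible form, stood at 101 and 97.1 CPM, a ratio of 0.96 (0.89 to 1.04). Hk3, a form typical of myeloid cells (chromosome 13, 55005985 to 55021475), was the most abundant of the 3 in both libraries per length as well as in reads. It stood at 313 CPM in WT and 446 CPM in KO, a ratio of 1.42 (1.37 to 1.48). Summed hexokinase reads were 1.23-fold higher (1.19 to 1.27) in KO, while the intervals of Hk1 and Hk2 both included 1.

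The upper steps of glycolysis rearrange and split the sugar phosphate. Gpi1, glucose 6-phosphate isomerase, stood at 485 CPM in WT and 488 in KO. Phosphofructokinase, the committing step, has 3 isozymes. Pfkl, the liver type (chromosome 10, 77986947 to 78009807), stood at 127 CPM in WT and 98.4 in KO, 1.29-fold lower (1.2 to 1.38). Pfkp, the platelet type, (chromosome 13, 6579874 to 6649060) stood at 109 and 166 CPM, 1.53-fold higher (1.43 to 1.63). Scaled by total counts it was 1.45-fold higher and no longer passed the limit. Pfkm, the muscle type, was scarce at 11.3 and 9.27 CPM. Together these isozymes had 247 CPM in WT and 274 CPM in KO, a ratio of 1.11 (1.06 to 1.16), which is less than the difference of Pfkp alone.

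Of the sequence of Pfkp, 16.3% of 50-base stretches is shared with the overlapping gene Pitrm1, which had 641 reads in WT and 821 in KO. How the authors assigned such reads is not given in the sources used here.

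Pfkfb3 and Pfkfb4 encode the bifunctional enzymes that make fructose 2,6-bisphosphate, the main activator of phosphofructokinase. Pfkfb3 stood at 186 CPM in WT and 183 in KO, and Pfkfb4 at 48.4 and 51.3 CPM. Both intervals included 1. Aldolase was nearly all Aldoa, at 1130 and 1182 CPM, a ratio of 1.05 (1.02 to 1.07). Aldoc, the brain form, was the lowest of the 32 genes per length, with 74 reads in WT and 64 in KO, 1.48-fold lower (1.04 to 2.10). With total counts its ratio of 0.64 passed the limit. Tpi1, which interconverts the triose phosphates, stood at 342 and 316 CPM, a ratio of 0.92 (0.89 to 0.96).

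The promoters of Slc2a6 and Hk3, 2 of the 3 members with the highest ratios, and of Pfkl, which stood lower while Pfkp stood higher, are shown as the sequence just before the gene's start. They are RefSeq sequences of GRCm38.p6, at chr2:27028001-27028248, chr13:55021476-55021635 and chr10:78009808-78010057, all on the minus strand and written 5′ to 3′. Bases inside the gene's RefSeq span are not printed. Capitals mark matches on either strand to the hypoxia-element cores ACGTG and GCGTG, the Sp1 core GGGCGG and the PU.1 core GAGGAA, and adjoining matches can run together.
Slc2a6: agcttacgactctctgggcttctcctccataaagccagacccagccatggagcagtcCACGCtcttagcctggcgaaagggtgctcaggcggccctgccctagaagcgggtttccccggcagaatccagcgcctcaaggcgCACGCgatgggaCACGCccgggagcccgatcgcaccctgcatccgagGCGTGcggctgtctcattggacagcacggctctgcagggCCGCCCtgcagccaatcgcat
Hk3: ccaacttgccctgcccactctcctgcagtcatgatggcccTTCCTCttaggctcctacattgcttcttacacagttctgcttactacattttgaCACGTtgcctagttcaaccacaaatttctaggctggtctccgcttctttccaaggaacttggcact
Pfkl: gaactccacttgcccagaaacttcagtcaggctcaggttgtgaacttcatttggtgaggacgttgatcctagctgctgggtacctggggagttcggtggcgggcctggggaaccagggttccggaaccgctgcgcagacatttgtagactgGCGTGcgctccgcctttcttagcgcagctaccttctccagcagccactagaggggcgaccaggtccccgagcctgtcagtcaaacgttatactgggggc

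The Slc2a6 window holds 4 GCGTG cores and 1 Sp1 core, the Hk3 window 1 ACGTG core and 1 PU.1 core, and the Pfkl window 1 GCGTG core. The 250 bases before the start of Pfkp, which lie inside the gene's RefSeq span, hold 3 GCGTG and 4 Sp1 cores. A promoter entry was matched for 31 of 32 members. Among these, 10 held ACGTG (32.3%) and 17 held GCGTG (54.8%) in the 250 bases before the start, against 16.6% and 28.2% of 32851 RefSeq promoters. Sp1 cores were held by 21 members (67.7%) against 32.7% of promoters, and PU.1 cores by 6 (19.4%) against 23.3%. The E-box CACGTG, which contains ACGTG, was held by 3 members (9.68%) against 6.02%, and the NF-kB motif by 0, against 3.90%. Ldha had the most ACGTG matches, 5, and its level hardly differed between the libraries. The shares of RefSeq promoters cover all entries, whether or not the gene was tested, and were not matched for base composition. Members were counted by their first entry only. A match is only a description of the letters.

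The lower steps of glycolysis yield ATP and NADH. Gapdh, which makes NADH, had 583 reads in WT and 974 in KO, 48.3 against 63.1 CPM, a ratio of 1.31 (1.18 to 1.45). These reads are few for a gene that is usually among the most abundant. Of the 50-base stretches of Gapdh transcripts, 78.3% occur in transcripts of other genes, among them 198 pseudogenes in the table with 712 reads in WT and 902 in KO. Summed with those pseudogenes the ratio was 1.13 (1.06 to 1.22), a sum chosen after the data were seen. The Gapdh level and ratio are therefore uncertain.

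Pgk1, which makes the first ATP of the pathway, stood at 61.4 CPM in WT and 64.1 in KO, and shares 68.0% of its 50-base stretches with other genes. Pgam1, a mutase, stood at 55.8 and 60.1 CPM with 41.5% shared. Their intervals included 1. Eno1, the main enolase, stood at 157 and 140 CPM, a ratio of 0.89 (0.84 to 0.95), and shares 57.2%, mostly with its copy Eno1b, which had 1022 reads in WT and 1097 in KO. Eno2, the neuronal enolase, stood at 16.4 and 20.7 CPM, 1.26-fold higher (1.05 to 1.51). Pkm, pyruvate kinase, had the highest level of the 32 genes per length in both libraries, with 24799 reads in WT and 29428 in KO, a ratio of 0.93 (0.91 to 0.94). Its splice forms M1 and M2 cannot be separated in counts per gene.

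Lactate is made mainly by lactate dehydrogenase A and leaves the cell through monocarboxylate transporters. Ldha stood at 531 CPM in WT and 536 in KO, a ratio of 1.01 (0.98 to 1.04). Ldhb, whose subunit is typical of tissues that consume lactate (chromosome 6, 142490249 to 142507957), had 155 and 130 reads, 12.8 against 8.43 CPM, 1.52-fold lower (1.2 to 1.94). With 0.5 CPM added to both levels the ratio of Ldhb was 0.669, and with 2 CPM added 0.70, both short of the limit. It shares 27.0% of its 50-base stretches with a pseudogene, Gm5514, which had 0 reads in both libraries. Slc16a1, which encodes MCT1, stood at 13.7 and 10.4 CPM, 1.31-fold lower (1.05 to 1.64). Slc16a3, which encodes MCT4, the lactate exporter of glycolytic cells, stood at 58.5 and 52.3 CPM, a ratio of 0.89 (0.81 to 0.99).

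The pentose phosphate genes lay close to level apart from Tkt. In the oxidative arm, G6pdx, the NADPH-producing entry enzyme, stood at 218 CPM in WT and 238 in KO, a ratio of 1.09 (1.04 to 1.15). Pgls, the lactonase, stood at 51.2 and 47.8 CPM, and Pgd, the second NADPH-producing enzyme, at 76.8 and 82.2 CPM. Neither interval excluded 1. In the non-oxidative arm, the transketolase gene Tkt stood at 288 and 356 CPM, a ratio of 1.24 (1.18 to 1.29). The transaldolase gene Taldo1 was level at 204 CPM in each library. Rpia, the ribose phosphate isomerase, stood at 12.8 and 12.4 CPM, and Rpe, the epimerase, at 14.8 and 13.1 CPM, both with intervals that included 1. Rpe shares 18.7% of its 50-base stretches with Kansl1l, which had 146 reads in WT and 220 in KO.

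Members with a low level mostly had a ratio below 1, though the intervals of Pfkm, Rpia and Rpe included 1. Of 8 members with a mean under 20 CPM, 7 had a ratio below 1, and the exception was Eno2. The level is the mean of both libraries, which depends on the KO value. Slc2a6, at 14.6 CPM in WT, thus fell in the upper group only through its 34.5 CPM in KO. The median log2 ratio of those 8 members was -0.32. Among all tested genes under 20 CPM, 55.4% had a ratio below 1, and their median log2 ratio was -0.048. Of the 24 members above that level 8 had a ratio below 1 (33.3%), against 42.0% of all tested genes at that level. The limit of 20 CPM was chosen after the values were seen.

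Markers of other cell types also differed between the libraries. The list of stromal cell markers had 14 of 15 tested genes lower in KO, Thy1 being level, and summed to 1975 CPM in WT and 176 CPM in KO. Acta2 stood at 52.2 and 2.92 CPM, and Tagln was at 0 in both libraries. The 10 neutrophil markers summed to 705 and 505 CPM, and the 6 B cell markers to 14.7 and 2.59 CPM. Their part in the lower values of Ldhb, Aldoc, Slc2a3, Slc16a1 and Pfkl was not tested. Osteoclast markers summed to 321 CPM in WT and 518 in KO, most of it Atp6v0d2 at 254 and 421 CPM. Of 4 tested genes 3 were higher, while Ctsk had a ratio of 0.79 (0.68 to 0.91). Calcr was at 0 in both libraries. The part of osteoclast markers in the higher values of Slc2a6, Pfkp and Hk3 was not tested. T and NK cell markers summed to 24.4 CPM in WT and 36.2 in KO, with 2 of 5 tested genes higher, Cd4 and Cd8a. Endothelial markers summed to 50.1 and 55.4 CPM, Vwf being higher and Cdh5 lower of 4 tested. Megakaryocyte markers summed to 13.7 and 7.84 CPM. Of the dendritic markers only Itgax was tested, and it was 2.68-fold higher in KO. The part of these lists in the members' values was not tested. In bulk RNA, fewer cells of a type and less RNA per cell cannot be told apart. Macrophage markers were present at high levels, with Csf1r at 2646 CPM in WT and 2414 in KO and Cd68 at 1493 and 1589 CPM, while Adgre1 was 2.40-fold higher in KO. Tnfaip8l1, the targeted gene, had 21 reads in WT and 3 in KO, 8.94-fold lower (2.67 to 46.8), and Lyz2, the locus that carries Cre, was 1.86-fold lower. Depth was 11782664 counted reads for WT and 15815956 for KO.

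The balance between isozymes can be read from raw counts alone, since the odds ratio of 2 genes needs no library scaling. Of 14 isozyme pairs compared, 6 had an odds ratio past 1.5-fold, and for 10 the exact 95% interval excluded 1. Pairs within a family share genes and are not independent, and each of those 6 held Slc2a6, Pfkp, Aldoc or Ldhb. No share over pairs of other genes was computed. Such intervals cover counting error only, and 41.2% of all tested genes had a ratio of their own whose interval excluded 1. Reads of Pfkp per read of Pfkl were 0.86 in WT and 1.69 in KO, an odds ratio of 1.97 (1.78 to 2.17). By reads the platelet type made up 44.1% of phosphofructokinase in WT (exact binomial interval 42.3 to 45.9) and 60.7% in KO (59.2 to 62.1). Per length of exon the same share was 40.2% and 56.7%, so by the counts given Pfkl led in WT and Pfkp in KO. Pfkp shares 16.3% of its 50-base stretches with Pitrm1, and how such reads were assigned is not given. The order of Pfkl and Pfkp in WT is therefore uncertain.

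Hk3 had a larger share in KO relative to both other hexokinases, with an odds ratio of 1.42 (1.32 to 1.53) against Hk1 and 1.48 (1.36 to 1.61) against Hk2. It made up 55.5% of hexokinase reads in WT and 64.3% in KO. Between Hk1 and Hk2 the odds ratio was 0.96 (0.87 to 1.06). Slc2a6 stood at 10.5% of the reads of the 3 transporter genes in WT and 21.8% in KO, an odds ratio of 2.31 (1.91 to 2.79) against Slc2a1. Ldhb relative to Ldha had an odds ratio of 0.65 (0.51 to 0.83), yet Ldha supplied 97.6% and 98.5% of the reads. Aldoc relative to Aldoa had an odds ratio of 0.65 (0.46 to 0.92), with Aldoa at 99.5% and 99.7% of the reads. The pairs Pfkfb4 and Pfkfb3, Slc16a3 and Slc16a1, Pfkm and Pfkl, and Hk2 and Hk1 had intervals that included 1.

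**Figure D3:**
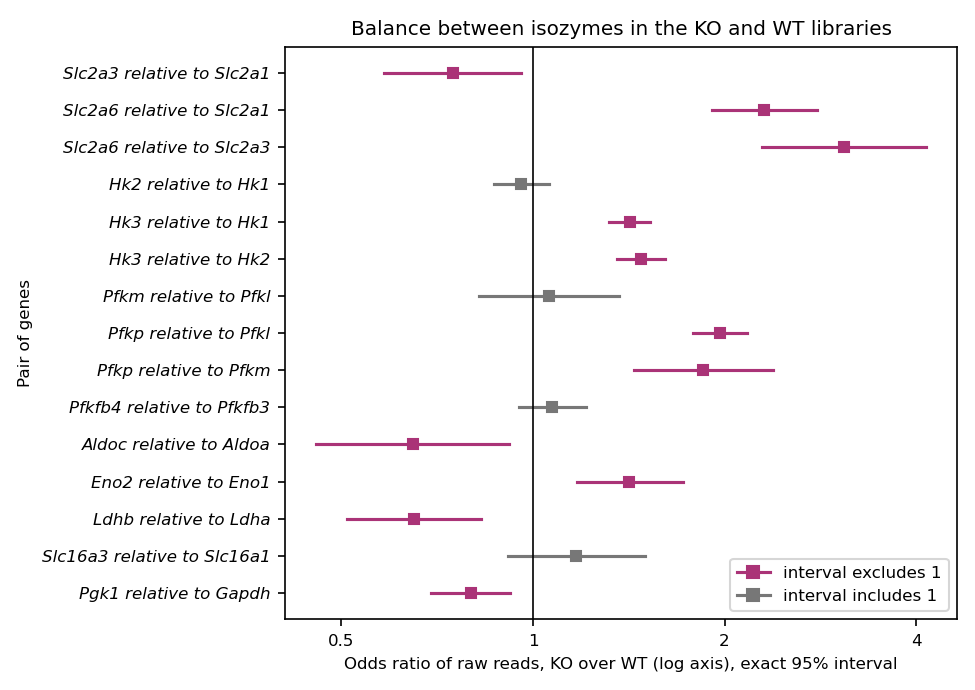
Odds ratio of the raw reads of pairs of genes in KO over the WT library, on a log axis with exact 95% intervals, coloured by whether the interval excludes 1, for 14 isozyme pairs and the pair of Pgk1 and Gapdh, which are not isozymes. Pfkp relative to Pfkl lies at 1.97 and Ldhb relative to Ldha at 0.65.

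The order of levels per length was nearly the same in both libraries. Pkm, Aldoa, Ldha, Tpi1, Gpi1 and Taldo1 held the first 6 places in each, from 790 CPM per kilobase for Pkm to 149 for Taldo1 in WT. Hk3, Tkt and G6pdx came next in both. Pfkp moved from place 20 to place 13 and Pfkl from place 14 to place 20, while Slc2a6 moved from place 26 to place 22 and Gapdh from place 17 to place 11. Slc2a1, Pfkl, Pgk1 and Pfkfb3 lay between 33.6 and 34.3 CPM per kilobase in WT, so their order there is not resolved. Places of Gapdh, Pgk1, Pgam1, Eno1 and Pfkp are too low to the extent that shared reads were not counted on them. The levels of Pkm, Ldhb, Gpi1 and Rpe have the same limit, with 36.3%, 27.0%, 25.3% and 18.7% of their 50-base stretches shared. That extent was not tested.

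Genes adjoining the pathway were read from 9 lists. Of 127 genes on them 101 were tested, of which 5 were higher and 5 lower, beside the 6.47% and 7.23% of all tested genes given above. The median log2 ratio over the 101 was -0.031. Among other glucose transporters and isozymes 1 of 12 was higher, the scarce Pfkfb1, at 23 and 52 reads, and 0 lower. With a mean of 10 CPM or more required, 0 were higher. Bsg, the chaperone of monocarboxylate transporters, stood at 225 CPM in WT and 187 in KO, a ratio of 0.83 (0.79 to 0.88). Slc2a2, Slc2a4, Slc2a5, Hkdc1, Pgk2 and Pklr were listed at 0 reads in both libraries.

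Among genes of the pentose phosphate surroundings and NADPH supply 1 of 12 was higher and 0 lower. The higher one was Nadk, the cytosolic kinase that makes NADP from NAD, at 267 CPM in WT and 449 in KO, a ratio of 1.68 (1.61 to 1.75). Its mitochondrial counterpart Nadk2 stood at 21.0 and 14.8 CPM, a ratio of 0.71 (0.59 to 0.85). Among the shuttles that carry cytosolic NADH equivalents to mitochondria 2 of 10 were higher and 0 lower. Gpd2, the mitochondrial glycerol 3-phosphate dehydrogenase, stood at 49.5 and 91.1 CPM, a ratio of 1.84 (1.67 to 2.03). Slc25a11, the oxoglutarate carrier, had 13 and 34 reads. With a mean of 10 CPM or more required, only Gpd2 stayed higher. Got1, the cytosolic aspartate aminotransferase, stood at 79.9 and 55.0 CPM, 1.45-fold lower (1.32 to 1.59), just short of the limit.

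Where pyruvate enters mitochondria, 0 of 13 genes were higher and 2 lower. These were Mpc1, a subunit of the pyruvate carrier, at 8.78 and 5.44 CPM, and Pdhx, the E3-binding subunit of pyruvate dehydrogenase, at 7.29 and 3.95 CPM. With a mean of 10 CPM or more required, 0 were lower, beside 2.66% of genes at such levels. Pdha1, the catalytic subunit, stood at 51.2 and 63.2 CPM. In the serine branch 1 of 6 was higher and 0 lower, the folate enzyme Mthfd2 at 52.3 and 100.6 CPM, a ratio of 1.92 (1.75 to 2.11). Of 14 glycogen genes 0 passed the limit in either direction, with the branching enzyme Gbe1 at 1.47 (1.30 to 1.68) and the kinase subunit Phka2 at 1.44 (1.30 to 1.58). Of 5 gluconeogenesis genes and of 9 hexosamine and mannose genes 0 passed it. Slc37a4, the glucose 6-phosphate carrier, and the mitochondrial Pck2 lay furthest from level in the first list, at ratios of 0.79 and 1.26. Gmppb at 1.37 and Gfpt1, the entry enzyme of the hexosamine branch, at 1.25 did so in the second.

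Of 20 tested regulators of the pathway 3 were lower and 0 higher, beside 7.23% and 6.47% of all tested genes. At a mean of 10 CPM or more 2 stayed lower, Ddit4 lying under that level, beside 2.66% of genes at such levels. Hif1a, which encodes HIF-1 alpha, had 7003 reads in WT and 4939 in KO, 580 against 320 CPM, 1.81-fold lower (1.75 to 1.88). HIF-1 alpha is also controlled through protein stability, which RNA does not show. Egln3, a prolyl hydroxylase that marks it for destruction and is itself a target, was 1.73-fold lower (1.48 to 2.02). Ddit4, an inhibitor of mTORC1 that is induced by hypoxia, stood at 13.2 and 3.11 CPM, 4.23-fold lower (3.05 to 5.97). Myc stood at 14.7 and 15.6 CPM. Txnip, which restrains glucose uptake and responds to glucose, stood at 260 and 284 CPM, a ratio of 1.09 (1.04 to 1.14), and Mlxip, a glucose-sensing factor, at 111 and 142 CPM, a ratio of 1.29 (1.2 to 1.38).

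**Figure D4:**
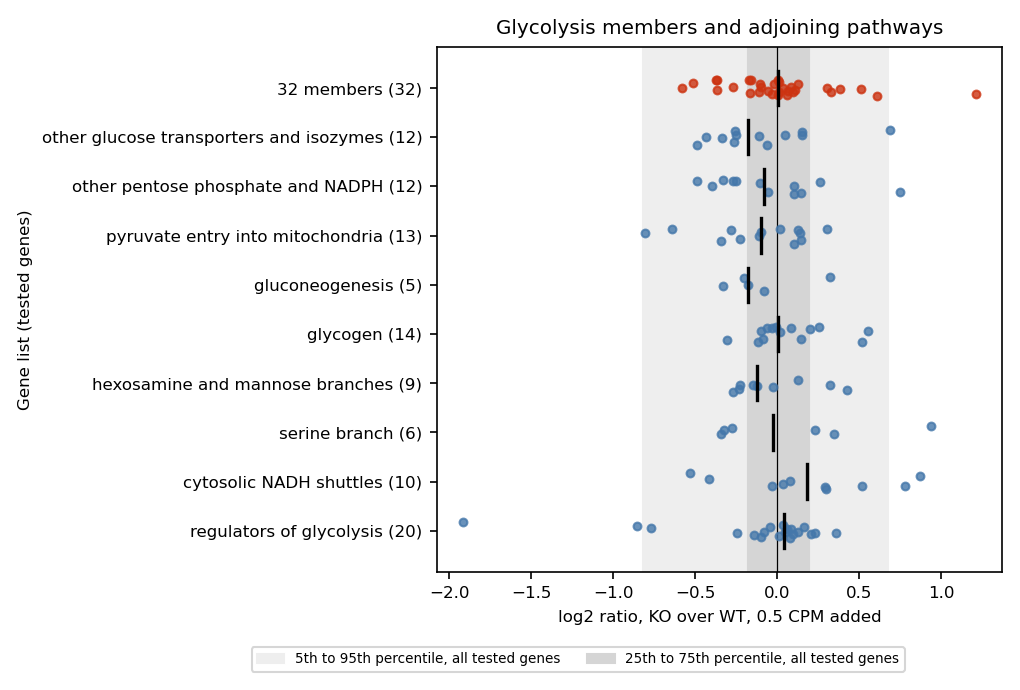
Log2 ratio of KO over WT with 0.5 CPM added for the 32 members and the tested genes of 9 adjoining lists, with a black bar at each list's median and grey bands for the spread of all 12495 tested genes. The members' median is 0.0043, Slc2a6 at 1.21 is the point furthest right among them, and Ddit4 at -1.92 is furthest left among the regulators.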

How the data were processed

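The deposited table holds raw read counts per gene symbol, with a column for each library, per the file headers. The submitters' processing notes name HISAT2 and GRCm38. How reads were counted, with which annotation, strand setting and filters, is not given in the sources used here. Overlapping or near-identical genes are therefore uncertain. Counts were scaled with TMM (edgeR 4.0.16, R 4.3.3), and genes whose mean reached 1 CPM were tested. Ratios of CPM carry exact Clopper-Pearson 95% intervals of the read split, and isozyme odds ratios exact conditional intervals (scipy 1.17.1). The labels name no molecular identifiers, PCR copies of 1 molecule can be counted more than once, and intervals cover counting error only. With 1 library per genotype a count model has no residual degrees of freedom, and no p-value was computed. A floor of 3 reads is 0.248 CPM in WT and 0.194 CPM in KO. Lengths are unions of exons in GENCODE's basic set for GRCm38, and shared 50-base stretches come from its transcripts on either strand. Promoters and gene spans came from RefSeq for GRCm38.p6. The calculation was tested on simulated data. All 32 members were named, with adjoining genes past the limit or furthest from level in each list, and some others as examples chosen after their values were seen. The members and lists were chosen with earlier results of these data known. Alternatives changed the scaling (total counts, DESeq2 1.42.0, TMM without stromal markers), the filter, the added CPM and the fold limit. Some list members are not reported here.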

Additional observations from a re-analysis of the deposited data

How the results depend on the processing

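The count of 2 higher members was 1 with total counts, 6 at a 1.2-fold limit, 1 at a 2-fold limit and 1 when the interval bound had to pass 1.5-fold. The count of 1 lower member was 2 with total counts, 5 at 1.2-fold, 0 at 2-fold and 0 by the interval bound. Both counts were the same with DESeq2 size factors, with TMM without stromal markers, at a mean of at least 10 CPM and with no filter. With total counts Pfkp fell below the limit at a ratio of 1.45 and Aldoc passed it at 0.64, since that scaling moved the median of all tested genes by -0.069. The members' median log2 ratio ranged from -0.067 with total counts to 0.018 as a mean over members. The ratio of Ldhb was 0.669 with 0.5 CPM added and 0.70 with 2 CPM added, both short of the limit. Of 160 planned recalculations of single ratios 7 left their counting interval. With total counts 7 members moved from a ratio above 1 to one below it, namely Slc2a1, Hk1, Gpi1, Aldoa, Pgk1, Ldha and Taldo1, from at most 1.05 to no lower than 0.95, and with DESeq2 size factors or TMM without stromal markers 0 did. The summed ratio of the 32 genes, recalculated after the data were seen, was 0.97 with total counts, 1.03 with DESeq2 size factors and 1.02 with TMM without stromal markers. Of 54 list values 47 kept within their limits, and the serine branch median became 0.29 at a mean of at least 10 CPM. No paired analysis was possible because only 1 library stands for each genotype. Depth limits the scarce members, such as Aldoc with 74 and 64 reads.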
